A study of Mus musculus with 25 samples.

Results

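The *Prame* and *Oog* genes were followed across mouse 2-cell embryos made by in vitro fertilization (IVF) or by somatic cell nuclear transfer (SCNT), the transfer of a somatic nucleus into an oocyte without its own. The genes were selected by name, as the autosomal genes whose symbol begins with Prame or is Oog followed by a number. This family was chosen with earlier results of these data known. The rule found 16 of the 55375 genes in the count table. All 16 had a mean of at least 1 read per library and entered the tests, which covered 25794 autosomal genes. They are *Oog1* to *Oog4*, *Pramef6*, *Pramef8*, *Pramef12*, *Pramef17*, *Pramef20*, *Pramef25*, *Pramel1*, *Pramel4* to *Pramel7*, and *Pramef12os*, a non-coding transcript antisense to *Pramef12*.

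PRAME proteins are built of leucine-rich repeats, and several of them serve as substrate receptors of a ubiquitin ligase assembled on the scaffold CUL2. The family has expanded into many similar copies in the mouse, and its members are best known from germ cells, oocytes and early embryos. PRAMEL7 directs the degradation of UHRF1, which recruits the maintenance DNA methyltransferase DNMT1, and the oogenesin OOG1 binds RALGDS, an activator of the small GTPases RALA and RALB.

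RNA was measured in 25 libraries of 11 groups, each made from a pool of 5 to 10 wild-type embryos collected 28 to 29 h after insemination or activation. The 4 IVF libraries came from C57BL/6N oocytes and DBA2 sperm. For every SCNT group, both the recipient oocytes and the donor cumulus nuclei were of the BDF1 strain, so the strain of the oocyte and the way the embryo was made cannot be told apart. The females were given as 4 to 20 weeks old. In cytochalasin B, an actin inhibitor used during SCNT, the groups were an untreated CB control and embryos injected with 10 pL of *Kdm3a* or *Kdm4d* mRNA at 1500 ng/µL, 2 libraries each. These mRNAs encode demethylases of histone H3 lysine 9. In latrunculin A, another actin inhibitor, the groups were an untreated LatA control, TSA, A366, TSA+RK-701, TSA+A366 and TSA+UNC0638 with 2 libraries each, and RK-701 with 3. TSA, a histone deacetylase inhibitor, was given at 25 nM for 8 h, and RK-701, A366 and UNC0638, inhibitors of the H3K9 methyltransferases G9a and GLP, at 1 µM for 24 h. UNC0638 without TSA was not part of the samples analysed here. The labels gave no batch or date. Nothing states how the pools of a group were related, so p-values measure the spread between these libraries, which may be technical.

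The libraries held between 6662727 and 21188688 gene reads (median 13994840). The 7 markers of 2-cell embryos summed to between 497 and 2174 TPM, a unit that corrects for gene length, in every library, and the 12 cumulus cell markers to between 4.32 and 33.2 TPM, with *Lum* at 0 reads in every group except TSA+A366. The 7 autosomal oocyte markers divided the groups. They summed to 2475 to 3005 TPM in IVF and 2273 to 2993 TPM in RK-701 libraries, but to 847 to 2120 TPM in all other libraries. The RK-701 libraries therefore stood apart from the other SCNT libraries in oocyte transcripts. In pooled embryos, fewer molecules per embryo and fewer expressing embryos cannot be told apart.

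Of the members, 13 lay within 1.014 Mb of chromosome 4 (143394428 to 144408464 in mm10). *Pramel7* (chromosome 2, 87489087 to 87497093, minus strand) and *Pramel6* (chromosome 2, 87506565 to 87510872, plus strand) neighbour each other, and *Oog1* lies alone on chromosome 12 (87602688 to 87608850, plus strand). Because only reads with a single position in the genome were counted, near-identical copies can lose reads or pass them to each other. The share of 150-base windows of a transcript that also occur exactly in a transcript of another gene measured this. It was 88.4% for *Oog1*, 79.0% for *Pramel4* and 40.1% for *Pramef17*, 14.1% for *Oog2*, 10.1% for *Pramef6*, 8.16% for *Oog3* and 6.71% for *Pramef25*, and 0 for the other 9. The levels of *Oog1*, *Pramel4* and *Pramef17* are the least certain for this reason, and changes of these genes cannot be separated from those of their copies. Between coding sequences of members, identity ranged from 50.4% to 85.2% over 105 pairs, with a median of 57.5%.

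RefSeq promoters of build GRCm38.p6, from 250 bases before to 50 after the transcription start, were matched for 14 of the 16 members, all but *Pramef8* and *Pramef12os*. They are shown for 2 sets of members whose promoters hold the same run of bases. The 4 *Oog* promoters share the run TTCAGCTGAAA, the longest that all 4 hold, printed in capitals. It lay close to the start site, at position -21 in *Oog1*, -44 in *Oog3* and -43 in *Oog4*. Of the 32851 promoters in the table, 17 (0.0517%) held it on either strand, among them those of the relatives *C87499*, *Gm13084* and *Gm13089*. The 4 *Oog* promoters were 64.6% to 76.7% identical to each other along their length, and a role of the run was not tested. The *Oog1* promoter spans chr12:87602415-87602714 (plus strand), that of *Oog3* chr4:144162602-144162901 and that of *Oog4* chr4:143450275-143450574 (both minus strand).
*Oog1*: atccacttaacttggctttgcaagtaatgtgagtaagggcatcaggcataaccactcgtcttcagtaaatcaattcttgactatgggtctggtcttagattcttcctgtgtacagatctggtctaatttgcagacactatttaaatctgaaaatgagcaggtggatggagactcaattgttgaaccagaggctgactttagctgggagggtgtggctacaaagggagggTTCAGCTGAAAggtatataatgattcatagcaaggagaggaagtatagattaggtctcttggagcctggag
*Oog3*: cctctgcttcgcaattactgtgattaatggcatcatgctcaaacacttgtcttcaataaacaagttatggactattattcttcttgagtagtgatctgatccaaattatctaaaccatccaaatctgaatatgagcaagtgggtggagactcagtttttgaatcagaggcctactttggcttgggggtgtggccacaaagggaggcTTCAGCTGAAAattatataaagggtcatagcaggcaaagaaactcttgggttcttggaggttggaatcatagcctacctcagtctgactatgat
*Oog4*: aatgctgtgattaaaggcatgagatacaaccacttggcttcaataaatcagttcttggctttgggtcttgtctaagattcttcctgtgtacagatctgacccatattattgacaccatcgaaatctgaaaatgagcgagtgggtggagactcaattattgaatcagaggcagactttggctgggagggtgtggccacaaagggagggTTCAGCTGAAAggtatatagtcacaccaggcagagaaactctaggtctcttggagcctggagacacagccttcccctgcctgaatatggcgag

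*Pramef17* and *Pramel7* are on different chromosomes, yet their promoters were 75.2% identical and shared a run of 23 bases at positions -75 and -76. It is in capitals below, and 3 of the 32851 promoters (0.0091%) held it, the third being that of *Gm13128*. They span chr4:143994320-143994619 and chr2:87492369-87492668, both on the minus strand. The latter lies inside the span given above for *Pramel7*, so the RefSeq start differs from that of the gene there. Both are shown because both genes were called with *Kdm3a*, TSA+RK-701 and TSA+A366. *Pramef17* was also called in the LatA control and with RK-701 and TSA+UNC0638, where *Pramel7* was not. Their coding sequences were 79.9% identical as well, and a role of the run was not tested.
*Pramef17*: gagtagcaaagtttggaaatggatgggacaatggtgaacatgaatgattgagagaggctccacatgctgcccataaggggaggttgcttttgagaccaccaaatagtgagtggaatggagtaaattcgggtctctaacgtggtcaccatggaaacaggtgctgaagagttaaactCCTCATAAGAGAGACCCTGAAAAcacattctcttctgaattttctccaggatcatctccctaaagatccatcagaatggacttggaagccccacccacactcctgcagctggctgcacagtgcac
*Pramel7*: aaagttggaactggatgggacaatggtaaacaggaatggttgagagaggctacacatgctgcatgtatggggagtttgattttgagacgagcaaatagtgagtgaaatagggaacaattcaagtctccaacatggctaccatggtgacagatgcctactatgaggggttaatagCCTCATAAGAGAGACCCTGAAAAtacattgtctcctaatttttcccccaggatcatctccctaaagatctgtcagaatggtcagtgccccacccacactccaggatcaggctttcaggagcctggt

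*Pramel4* and *Pramel5* had the most similar promoters of any 2 members, at 83.4% identity, with an exact run of 111 bases. Motifs were searched on both strands. The TATA box TATAAA was found in *Oog2* and *Oog3* (13.62% of all promoters), GGATTA in *Pramef6*, *Pramel4* and *Pramel5* (7.06%) and GGGCGG in *Pramel1* (35.66%). The E-box form CACGTG was in none of the 14 member promoters, against 7.15% of all promoters, and 14 are too few to show a lack. Other E-box forms were not searched, although the run printed above for the *Oog* promoters contains one, CAGCTG. Its role was not tested.

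*Oog3* was by far the most abundant member per length. Its mean over all libraries was 4450 TPM, followed by *Oog1* at 480 TPM, *Pramel7* at 388 TPM, *Pramel6* at 256 TPM and *Pramel5* at 163 TPM. The remaining 11 members lay between 1.72 TPM for *Pramef12os* and 108 TPM for *Oog4*. *Oog3* was first in all 11 groups, while the second place was held by *Pramel7* in IVF, SCNT-*Kdm3a*, SCNT-*Kdm4d*, TSA+RK-701 and TSA+A366, and by *Oog1* in the other 6. Their libraries overlapped with TSA+UNC0638, at 332 and 426 TPM for *Oog1* and 345 and 295 TPM for *Pramel7*, so the order of these 2 neighbours was not settled there. *Pramef12os* is near the limit of detection, with 151 reads in all and 0 to 19 per library.

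The members together took 5720 ± 466 RPM in IVF (SD, n = 4), that is, reads scaled to the gene reads of the library, and 6187 ± 282 in RK-701 (n = 3). After TMM scaling the order of these 2 groups turned, with 5993 in IVF and 5586 in RK-701. The CB control had 3410 ± 690 and the LatA control 3619 ± 1469 (n = 2 each), the latter from libraries of 4657 and 2580. All SCNT groups other than RK-701 had means between 3064 and 4417. *Oog3* supplied 81.3% of the family's reads in IVF and 75.3% in RK-701, against 54.1% to 68.4% in the other groups. Without *Oog3* the order was different. The other 15 members summed to 1066 RPM in IVF, the lowest group, and to 1565 in SCNT-*Kdm3a*, the highest. After TMM scaling these sums were 1118 in IVF and 1756 in SCNT-*Kdm3a*, and the CB control was lowest at 1102. No test was run on these sums.

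**Figure D1:**
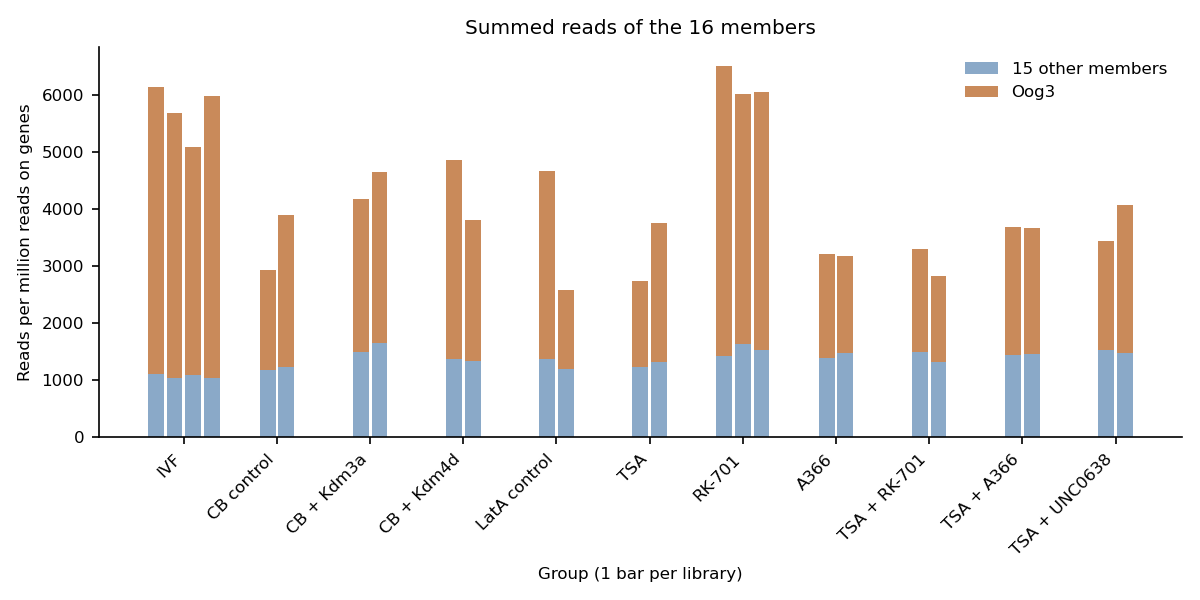
Reads on the 16 *Prame* and *Oog* genes per library, in RPM (scaled to all reads on genes), as stacked bars of *Oog3* and of the other 15 members. *Oog3* makes up most of each bar, the 4 IVF and 3 RK-701 libraries are the tallest, and the part without *Oog3* is lowest in IVF in these units.

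The first comparison asks how far unmodified SCNT embryos depart from fertilized embryos. Values are CPM, read counts scaled to the library's total after TMM correction, and a gene was called where the adjusted p from edgeR's quasi-likelihood test was under 0.05 and the fold change over 2. Against IVF, 6 of 16 members were called in the LatA control (1 higher, 5 lower), where 15.3% of all genes tested were called, 8.83% higher and 6.48% lower. In the CB control 5 of 16 were called (1 higher, 4 lower), against 15% of all genes, 8.17% higher and 6.82% lower. The members' median log2 fold change was -0.39 and -0.60, and that of all genes 0.04 and 0.01. Both comparisons use the same 4 IVF libraries. DESeq2 called the same members.

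*Oog1* was the member that rose. It had 139, 139, 120 and 133 CPM in the IVF libraries, 346 and 307 CPM in the CB control and 343 and 395 CPM in the LatA control. No SCNT library of any group fell into the IVF range, the lowest being 220 CPM. The log2 fold change was 1.48 in the LatA control (SE 0.16, adjusted p = 1.65e-07) and 1.30 in the CB control (SE 0.16, adjusted p = 1.11e-06). Most of its sequence is shared with copies, as given above. The gene that holds the most of its 150-base windows, *Gm2042*, was not among the genes compared. Among the genes with PRAME family symbols in RefSeq, *Gm13023* was closest by coding sequence (96.0% identical). Its log2 fold change of -0.42 (SE 0.16, adjusted p = 0.0663) in the LatA control did not pass.

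*Oog3* and *Oog4* had the opposite pattern. *Oog3* had 5194, 4852, 4265 and 5187 CPM in IVF, 1547 and 2527 CPM in the CB control and 2973 and 1188 CPM in the LatA control. Both controls lay below every IVF library, but the LatA libraries differed from each other by more than 2-fold. The log2 fold change of *Oog3* was -1.23 (SE 0.26, adjusted p = 0.000886) and -1.26 (SE 0.26, adjusted p = 0.000719) in the LatA and CB controls. *Oog4* fell from 113, 102, 138 and 105 CPM in IVF to 49.5 and 57.7 CPM in the CB control (log2 fold change -1.09, SE 0.25, adjusted p = 0.00213). In the LatA control, with 78.3 and 46.2 CPM, the change of *Oog4* was -0.88 (adjusted p = 0.0111), short of 2-fold. *Oog2*, also in this group, had 87.8 to 122 CPM in IVF and 56.9 to 106 CPM in the controls and was not called.

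Of the *Pramef* genes, *Pramef6* and *Pramef20* fell in both controls. *Pramef6* had 34.3, 17, 34.4 and 31.6 CPM in IVF, 2.03 and 5.5 CPM in the CB control and 5.21 and 3.26 CPM in the LatA control, with no overlap. Its log2 fold changes of -2.77 (SE 0.46, adjusted p = 7.5e-05) and -2.94 (SE 0.47, adjusted p = 4.48e-05) in the LatA and CB controls were the largest of any member. *Pramef20* went from 15.5, 12.4, 15.8 and 15.4 CPM in IVF to 6.3 and 3.83 CPM in the CB control and 5.16 and 2.51 CPM in the LatA control. These were log2 fold changes of -1.55 (SE 0.41, adjusted p = 0.00761) and -1.92 (SE 0.42, adjusted p = 0.00138).

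*Pramef17* and *Pramef25* were called lower in the LatA control alone. *Pramef17* had 39.8, 28, 28.1 and 31.2 CPM in IVF and 15.4 and 10.2 CPM in the LatA control (log2 fold change -1.30, SE 0.30, adjusted p = 0.00264), and 16.9 and 22.8 CPM in the CB control (log2 fold change -0.67, adjusted p = 0.107). *Pramef25* had 71.8, 49.4, 72 and 66.4 CPM in IVF and 26.9 and 7.73 CPM in the LatA control (log2 fold change -1.88, SE 0.45, adjusted p = 0.00322), and 16.4 and 47.8 CPM in the CB control (log2 fold change -1.01, adjusted p = 0.0976). The controls themselves were not shown to differ in these genes. In the test of the LatA against the CB control, edgeR called 0 of 16 members, 0 had an unadjusted p under 0.05, DESeq2 called 0, and 0.0116% of all genes were called (0.00388% higher, 0.00775% lower). The 95% interval of that difference was -1.32 to 0.07 for *Pramef17* and -1.87 to 0.12 for *Pramef25*.

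No *Pramel* gene was called in either control. *Pramel7*, the UHRF1-directed receptor, had 253, 278, 262 and 246 CPM in IVF, 205 and 268 CPM in the CB control and 222 and 172 CPM in the LatA control. *Pramel6* had 157, 133, 137 and 135 CPM in IVF, and 104, 146, 152 and 101 CPM over the 4 control libraries. *Pramel5* was nearest to a call, at 64.7 to 80.3 CPM in IVF and 86 to 129 CPM in the controls, with a log2 fold change of 0.65 in the LatA control (adjusted p = 0.0169) that was under 2-fold.

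The oocyte markers moved with the lower members. Of the 7 autosomal markers, 4 were called lower in the LatA control (*Gdf9*, *Nlrp5*, *Oosp1* and *Zp3*) and 5 in the CB control, and their part in the lower *Oog3*, *Oog4* and *Pramef20* was not tested. Individual libraries also decided some calls. Without replicate 2 of the LatA control 3 members were called against IVF, with *Oog3*, *Pramef17* and *Pramef25* lost, and without replicate 1 of the CB control 3 were called. *Oog1* and *Pramef6* were called in both comparisons whichever library was left out. Without replicate 1 of the LatA control the changes of *Oog3*, *Pramef20* and *Pramef25* were -2.04, -2.55 and -3.07, and without its replicate 2 *Pramef25* was at -1.27. Without replicate 2 of the CB control *Pramef6* was at -3.84.

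**Figure D2:**
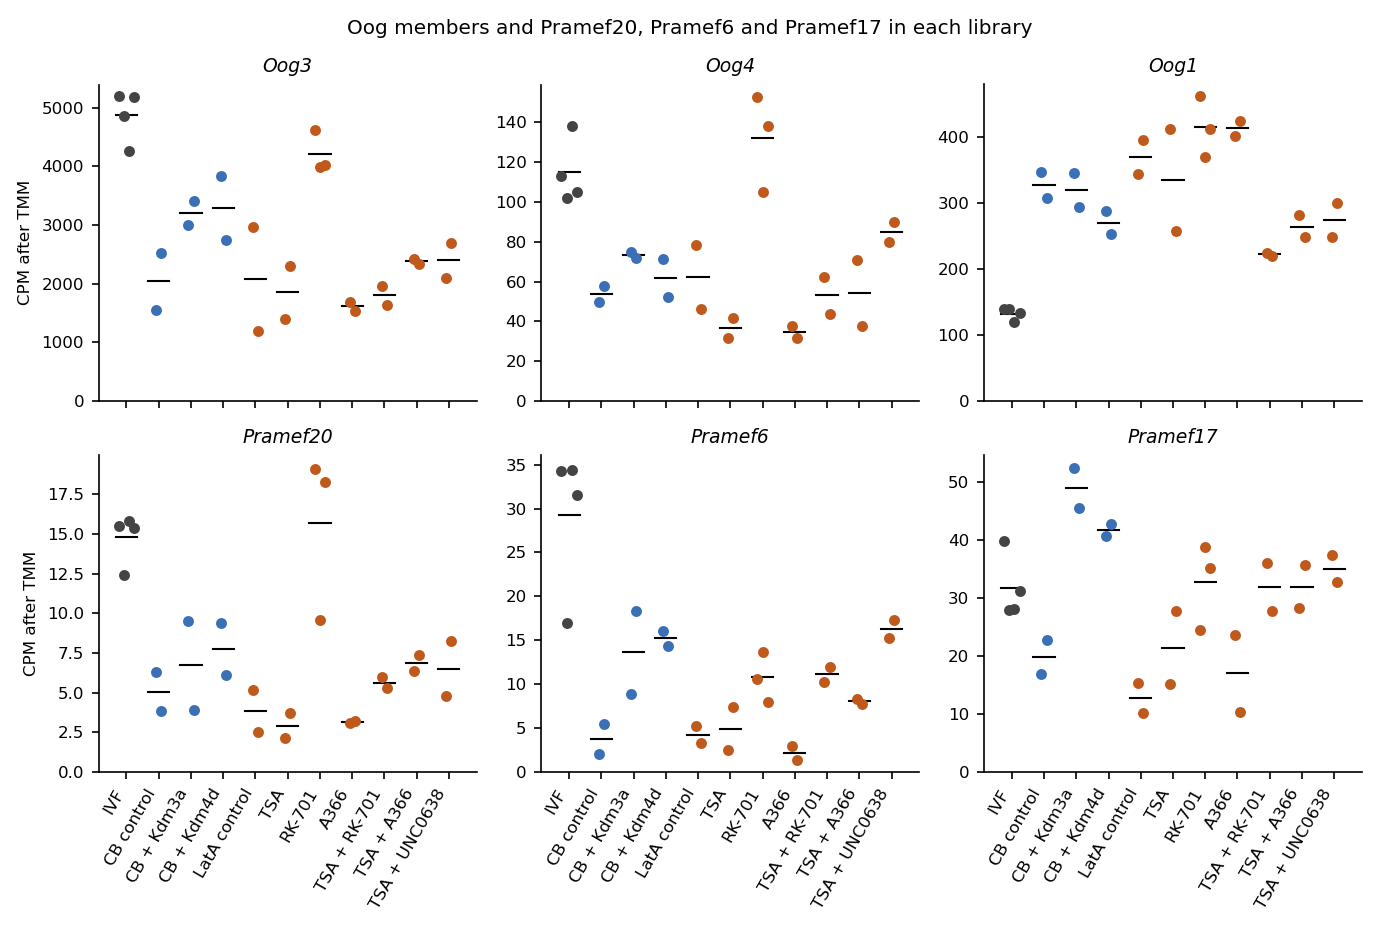
CPM after TMM scaling of *Oog3*, *Oog4*, *Oog1*, *Pramef20*, *Pramef6* and *Pramef17* in each of the 25 libraries, by group, with a point for each library. *Oog3*, *Oog4* and *Pramef20* are high in IVF and RK-701 and lower in the untreated controls and A366, whereas *Oog1* is lowest in IVF.

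The next question is which members returned with the G9a inhibitors given alone. RK-701 raised 5 of 16 members over the LatA control, where 3.35% of all genes were called, 1.73% higher and 1.61% lower. These were *Oog3*, *Oog4*, *Pramef17*, *Pramef20* and *Pramef25*, and DESeq2 called 5 with *Pramef6* in place of *Oog3*. *Oog3* reached 4614, 3985 and 4030 CPM in the RK-701 libraries, with a log2 fold change of 1.02 (SE 0.26, adjusted p = 0.0212). This was so close to 2-fold that DESeq2 and RLE scaling put it below and lost the call. *Oog4* reached 153, 105 and 138 CPM, with a log2 fold change of 1.08 (SE 0.26, adjusted p = 0.0132). Both ranges lay above the LatA control libraries and overlapped those of IVF.

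*Pramef20* had 19.1, 9.57 and 18.3 CPM in RK-701 (log2 fold change 2.01, SE 0.43, adjusted p = 0.00652) and *Pramef25* 37.3, 91.3 and 59.3 CPM (log2 fold change 1.83, SE 0.47, adjusted p = 0.0185). *Pramef17* had 24.5, 38.8 and 35.2 CPM (log2 fold change 1.35, SE 0.32, adjusted p = 0.0117). All of these RK-701 libraries were above both LatA control libraries. Against the CB control instead, *Pramef25* and *Pramef17* were no longer called (0.96 and 0.72), and with the replicate number as a block *Pramef25* was not (1.78, adjusted p = 0.0593). *Pramef6*, at 10.6, 13.7 and 8 CPM, did not pass (log2 fold change 1.33, adjusted p = 0.0825). The *Pramel* genes were not called, and *Pramel7* had 134, 230 and 182 CPM, around the LatA control.

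A366, at the same dose and time, gave another result. Against the LatA control, edgeR called 0 of 16 members, 1 had an unadjusted p under 0.05, and DESeq2 called 0, while 0.12% of all genes were called (0.0814% higher, 0.0388% lower). *Oog3* had 1695 and 1526 CPM, *Oog4* 37.5 and 31.8 CPM, *Pramef20* 3.1 and 3.22 CPM and *Pramef6* 2.94 and 1.37 CPM. Tested directly against RK-701, 4 of 16 members were lower in A366, where 8.08% of all genes were called, 3.97% higher and 4.1% lower. The log2 difference was -1.39 for *Oog3* (95% interval -1.94 to -0.84, adjusted p = 0.00082), -1.93 for *Oog4* (-2.49 to -1.38, adjusted p = 2.47e-05), -2.31 for *Pramef20* (-3.22 to -1.39, adjusted p = 0.000807) and -2.34 for *Pramef6* (-3.34 to -1.33, adjusted p = 0.00167). None of these A366 libraries overlapped the RK-701 libraries. *Oog1* was nearly the same with both inhibitors, at 369 to 462 CPM and 401 and 424 CPM, and the interval of its difference ran from -0.36 to 0.35.

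The oocyte markers, taken as a sum, again moved in parallel. Their sum was 2273 to 2993 TPM in RK-701 against 1215 to 1224 TPM in the LatA control and 1117 to 1587 TPM in A366. Singly, few of the 7 were called. *Oosp1* was called higher in RK-701 over the LatA control (log2 fold change 1.38), beside 1.73% of all genes. *Nlrp5* and *Zp2* were called lower in A366 than in RK-701 (-1.96 and -1.11), beside 4.1% of all genes. The part of these transcripts in the *Oog* result was not tested. Without replicate 2 of the LatA control, or with only the compared libraries in the model, 0 of 16 members were called for RK-701, and without replicate 1 of RK-701 there were 3. Without replicate 1 of the LatA control, the changes of *Oog3*, *Pramef20* and *Pramef25* were larger, at 1.82, 2.64 and 3.02. Without replicate 2 of the LatA control 1 member was called for A366. The difference between A366 and RK-701 does not rest on that control, and *Oog3*, *Oog4* and *Pramef20* were called in it whichever library was left out.

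TSA alone was compared with the same LatA control. The edgeR test called 0 of 16, 3 had an unadjusted p under 0.05, DESeq2 called 0, and 0.318% of all genes were called (0.159% higher, 0.159% lower). *Oog3* had 1397 and 2306 CPM, *Pramel7* 218 and 298 CPM and *Pramef25* 6.61 and 18.6 CPM. Without replicate 2 of the LatA control, 1 member was called.

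The injected demethylases were compared with the CB control. *Kdm3a* raised 4 of 16 members, where 4.16% of all genes were called (2.38% higher, 1.78% lower). *Kdm4d* raised 1 of 16, where 3.14% of all genes were called (2.11% higher, 1.04% lower). DESeq2 called 4 and 1, for *Kdm3a* with *Pramel1* in place of *Pramel7*, and the comparisons share the CB control. *Pramel7* went from 205 and 268 CPM in the control to 437 and 542 CPM with *Kdm3a* (log2 fold change 1.05, SE 0.22, adjusted p = 0.00379). The call was lost under DESeq2 and RLE scaling, both at 0.99 and so under 2-fold. It had 364 and 424 CPM with *Kdm4d* (log2 fold change 0.74, adjusted p = 0.045), which was under 2-fold. *Pramel4* went from 57.3 and 75 CPM to 127 and 180 CPM with *Kdm3a* (log2 fold change 1.21, SE 0.28, adjusted p = 0.00899), and had 112 and 125 CPM with *Kdm4d* (log2 fold change 0.84, adjusted p = 0.0776). In both genes all injected libraries were above both control libraries.

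*Pramef6* was the member called with both mRNAs, at 8.85 and 18.3 CPM with *Kdm3a* (log2 fold change 1.82, SE 0.49, adjusted p = 0.0248) and 16.1 and 14.3 CPM with *Kdm4d* (log2 fold change 2.00, SE 0.49, adjusted p = 0.0171). *Pramef17* rose with *Kdm3a* to 52.5 and 45.6 CPM (log2 fold change 1.30, SE 0.33, adjusted p = 0.0179), and had 40.7 and 42.8 CPM with *Kdm4d* (log2 fold change 1.07, adjusted p = 0.0589). *Pramel6* passed the p threshold with both (log2 fold changes 0.90 and 0.94, adjusted p = 0.0384 and 0.0328) without reaching 2-fold. *Oog3* was not called, with 2991 and 3407 CPM and 3837 and 2750 CPM against 1547 and 2527 CPM in the control. The oocyte markers summed to 1057 to 1443 TPM with *Kdm3a*, 1745 to 2120 TPM with *Kdm4d* and 1359 to 1453 TPM in the control.

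A difference between the mRNAs was not shown. Tested against each other, edgeR called 0 of 16 members, 1 had an unadjusted p under 0.05, DESeq2 called 0, and 0.326% of all genes were called (0.143% higher, 0.182% lower). The interval of the *Kdm4d* minus *Kdm3a* difference was -0.75 to 0.13 for *Pramel7*, -0.94 to 0.20 for *Pramel4* and -1.80 to 0.15 for *Pramef25*, on the log2 scale. Without replicate 1 of the CB control, 0 members were called with either mRNA. The same held for *Kdm3a* without its replicate 2 and for *Kdm4d* without either of its libraries, and without replicate 2 of the CB control 6 and 2 members were called, with *Pramef6* at 2.73 and 2.90. Without replicate 2 of *Kdm3a*, *Pramef6* was at 1.21 (adjusted p = 0.279).

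**Figure D3:**
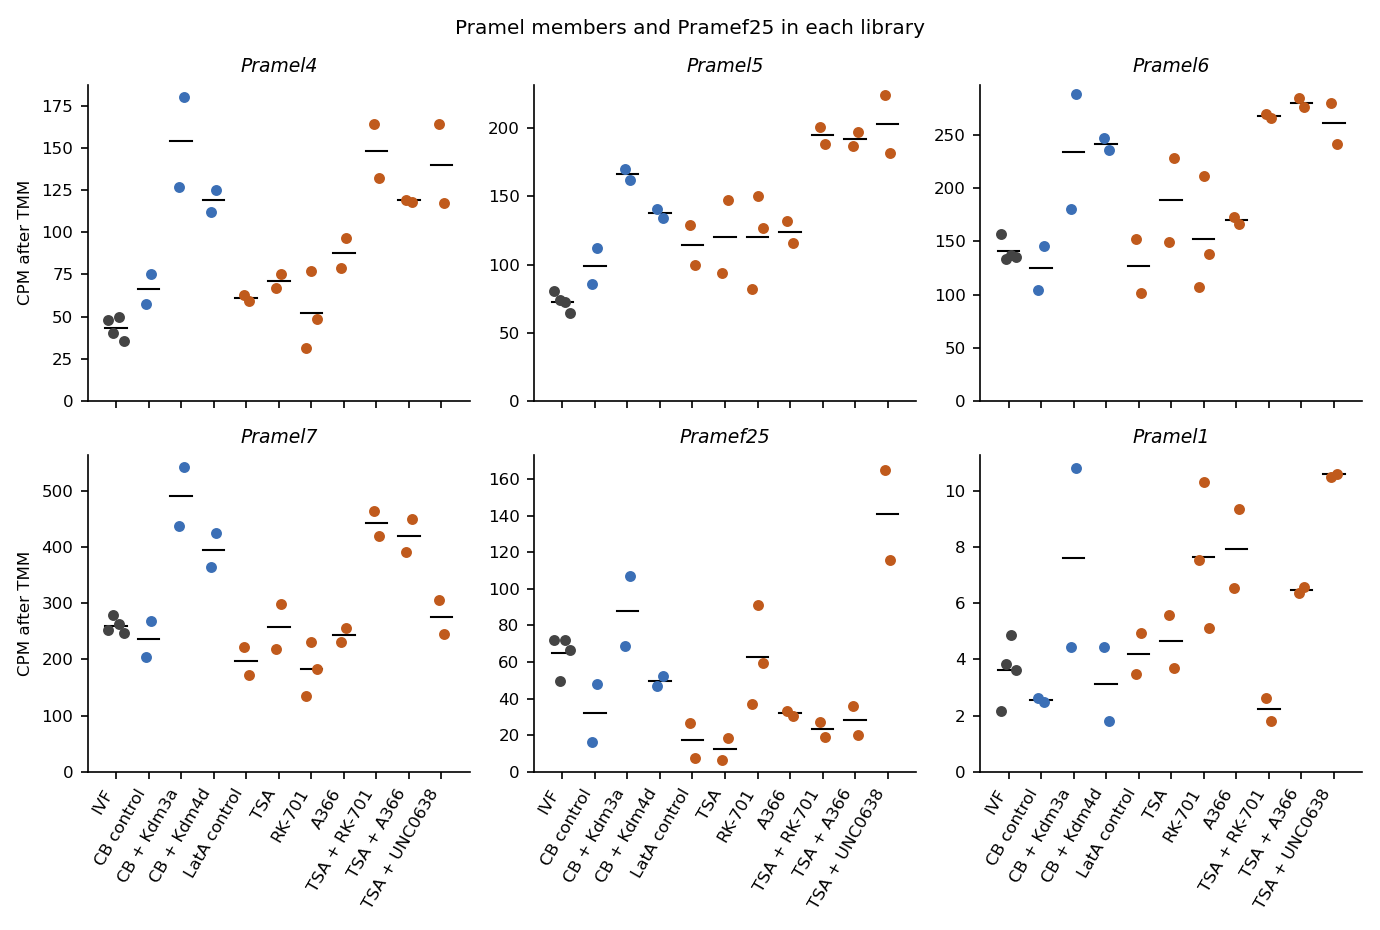
CPM after TMM scaling of *Pramel4*, *Pramel5*, *Pramel6*, *Pramel7*, *Pramef25* and *Pramel1* in each of the 25 libraries, by group, with a point for each library. The 6 libraries with TSA and a G9a inhibitor lie above both LatA control libraries for *Pramel4* to *Pramel7*, although *Pramel7* with TSA+UNC0638 overlaps IVF, and *Pramef25* is highest in the 2 TSA+UNC0638 libraries at 165 and 116 CPM.

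When TSA was combined with a G9a inhibitor, *Pramel6* was called higher with each of the 3 inhibitors, and *Pramel4* and *Pramel7* with 2 of them. *Pramel1* and *Pramel5* were called with none. Over the LatA control, 4 of 16 members were called higher with TSA+RK-701 (6.19% of all genes called), 3 with TSA+A366 (5.98%) and 5 with TSA+UNC0638 (6.21%), and none was lower. Of all genes, 3.68%, 3.06% and 3.68% were called higher and 2.51%, 2.92% and 2.54% lower in these comparisons. DESeq2 called 5, 3 and 4, adding *Pramef6* with TSA+RK-701 and leaving out *Pramel6* with TSA+UNC0638, where it was under 2-fold (0.98). The 3 comparisons share the 2 LatA control libraries. *Pramel7* went from 222 and 172 CPM in the control to 464 and 420 CPM with TSA+RK-701 (log2 fold change 1.17, SE 0.22, adjusted p = 0.00102) and 391 and 449 CPM with TSA+A366 (log2 fold change 1.09, SE 0.22, adjusted p = 0.00187). With TSA+UNC0638 it had 306 and 245 CPM (log2 fold change 0.48, adjusted p = 0.174).

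Its neighbour *Pramel6* rose with all 3, from 152 and 101 CPM to 270 and 266, 285 and 276, and 280 and 241 CPM. Its log2 fold changes were 1.08, 1.14 and 1.04 (SE 0.26 each, adjusted p = 0.00865, 0.00593 and 0.0117). *Pramel4* had 62.9 and 59 CPM in the control, 164 and 132 CPM with TSA+RK-701, 119 and 118 CPM with TSA+A366 and 164 and 117 CPM with TSA+UNC0638. It was called in the first (log2 fold change 1.28, SE 0.28, adjusted p = 0.00382) and the last (1.20, SE 0.28, adjusted p = 0.00672), and with TSA+A366 the change of 0.96 was just under 2-fold (adjusted p = 0.0289). *Pramel5* was raised by 0.77, 0.75 and 0.83 on the log2 scale (adjusted p = 0.0336, 0.0401 and 0.0229), also under 2-fold. The co-treated libraries were above both control libraries for each of these genes.

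*Pramef17* was called with every co-treatment, from 15.4 and 10.2 CPM to 36.1 and 27.8, 28.2 and 35.7, and 37.4 and 32.8 CPM. Its log2 fold changes were 1.31, 1.31 and 1.45 (SE 0.34 each, adjusted p = 0.0126, 0.013 and 0.00662). With the CB control as the reference all 3 calls were lost, at 0.68, 0.69 and 0.82, and with the mean of both controls those of TSA+RK-701 and TSA+A366 were. *Pramef25* was called with TSA+UNC0638 and had the largest rise of any member in any comparison. It had 495 and 83 reads in the LatA control and 2109 and 1578 reads with TSA+UNC0638, which is 26.9 and 7.73 against 165 and 116 CPM. The log2 fold change was 3.00 (SE 0.51, adjusted p = 0.000369), an 8.02-fold rise, and both libraries were above all 23 others. It was 4.19 and 2.39 without replicate 1 or 2 of the LatA control and 2.13 with the CB control as the reference, and was called each time. *Pramef6* also rose with TSA+UNC0638, to 15.2 and 17.3 CPM (log2 fold change 1.92, SE 0.48, adjusted p = 0.0113), and had 10.2 and 12 CPM with TSA+RK-701 (log2 fold change 1.37, adjusted p = 0.0707).

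No *Oog* gene was called with a co-treatment. *Oog3* had 1964 and 1634, 2421 and 2336, and 2096 and 2699 CPM with TSA+RK-701, TSA+A366 and TSA+UNC0638, around the 2973 and 1188 CPM of the control. *Oog1* fell by 0.73 on the log2 scale with TSA+RK-701 (SE 0.19, adjusted p = 0.0132), which was under 2-fold. The oocyte markers summed to 847 to 1492 TPM over the 6 co-treated libraries. The calls depended on replicate 2 of the LatA control, without which 1, 0 and 1 members were called. Without replicate 1 of that control the counts for TSA+A366 and TSA+UNC0638 were 5 and 8, without replicate 2 of TSA+A366 the first was 1, and without replicate 1 of TSA+UNC0638 the other was 2. Only *Pramef25* with TSA+UNC0638 and *Pramel4* with TSA+RK-701 were called whichever library was left out. With only the compared libraries in the model, 2 and 0 members were called for TSA+RK-701 and TSA+A366. The *Pramel7* calls with TSA+RK-701 and TSA+A366 were lost against the CB control (0.90 and 0.83).

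**Figure D4:**
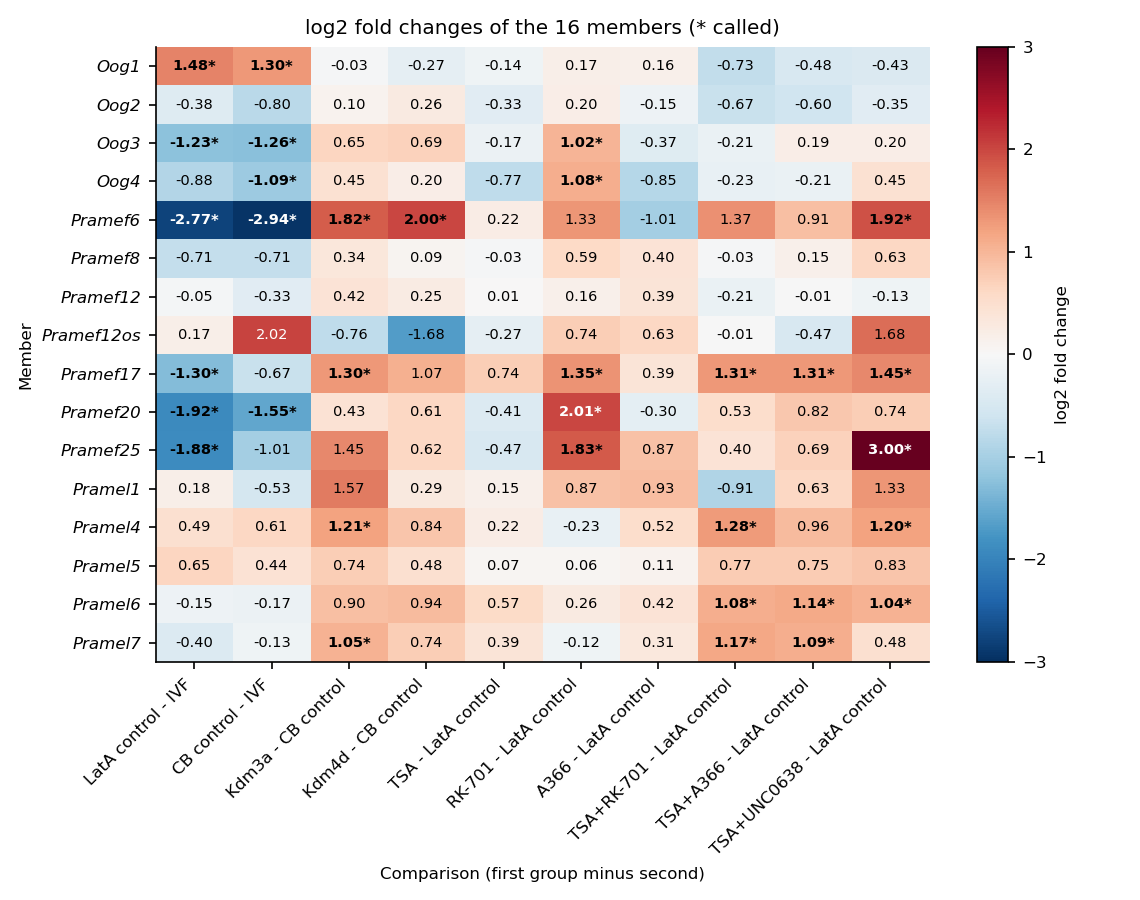
Log2 fold changes of the 16 members in the 2 comparisons of untreated SCNT with IVF, the 2 of demethylase mRNA with the CB control and the 6 of inhibitors with the LatA control, on a colour scale from -3 to 3, with an asterisk where the gene was called. The asterisks of *Pramel4*, *Pramel6* and *Pramel7* lie in the *Kdm3a* and co-treatment columns, *Oog3* is called lower in both comparisons with IVF and *Oog4* in that of the CB control, both are called higher in the RK-701 column, and TSA and A366 alone hold no asterisk.

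The 3 inhibitors could be compared at matched dose and time in the presence of TSA. Between TSA+A366 and TSA+RK-701, edgeR called 0 of 16 members, 1 had an unadjusted p under 0.05, DESeq2 called 0, and 0% of all genes were called in either direction. The intervals of the log2 difference were -0.51 to 0.37 for *Pramel7*, -0.47 to 0.60 for *Pramel6* and -0.17 to 0.98 for *Oog3*. TSA+UNC0638 exceeded TSA+RK-701 in 2 of 16 members (0.946% of all genes called, 0.671% higher and 0.275% lower), by 2.60 in *Pramef25* (95% interval 1.57 to 3.63, adjusted p = 0.00722) and by 2.25 in *Pramel1* (1.20 to 3.29, adjusted p = 0.022). *Pramel1* had 10.5 and 10.6 CPM with TSA+UNC0638 and 2.63 and 1.81 CPM with TSA+RK-701. TSA+UNC0638 exceeded TSA+A366 in 1 of 16 (0.849% of all genes called, 0.733% higher and 0.116% lower), again *Pramef25*, by 2.32 (1.30 to 3.33, adjusted p = 0.0159). In each comparison the *Pramef25* call was lost without any library except replicate 2 of TSA+UNC0638, and the *Pramel1* call without any of the 4. *Pramel7* was lower with TSA+UNC0638 than with TSA+RK-701 by 0.68, which did not pass (interval -1.13 to -0.24, adjusted p = 0.147).

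Whether the co-treatment departed from the sum of its parts was tested by an interaction term. For this term a gene was called at an adjusted p under 0.05, with no threshold on the fold change. For TSA with RK-701, edgeR called 0 of 16 members, 5 had an unadjusted p under 0.05, DESeq2 called 4, and 2.3% of all genes were called (1.54% higher, 0.764% lower). For TSA with A366, edgeR called 0, 3 had an unadjusted p under 0.05, DESeq2 called 1, and 1.88% of all genes were called (1.31% higher, 0.566% lower). The nearest to the threshold were *Oog4* with A366, at 1.41 (SE 0.39, adjusted p = 0.0586), and *Pramel4* with RK-701, at 1.29 (SE 0.38, adjusted p = 0.0662), on the log2 scale. *Oog3* with RK-701 had an interaction of -1.06 (SE 0.38, adjusted p = 0.16), from 4614, 3985 and 4030 CPM with RK-701 alone and 1964 and 1634 CPM with both. Without replicate 1 or 2 of the LatA control or replicate 2 of TSA 1 member was called for RK-701, and without replicate 2 of RK-701 there were 2. For A366 there were 2 without replicate 2 of the LatA control or of TSA, and 1 without replicate 2 of TSA+A366.

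The treated groups were also set against IVF. All use the same 4 IVF libraries and are given side by side. With RK-701, 3 of 16 members were called (11.8% of all genes, 6.65% higher and 5.15% lower), *Oog1* and *Pramel1* higher and *Pramef6* lower. *Oog3* differed from IVF by -0.21 with RK-701 (95% interval -0.65 to 0.23, adjusted p = 0.565) and *Pramef20* by 0.09 (-0.59 to 0.76, adjusted p = 0.907). With A366, 6 were called (2 higher, 4 lower), against 15.2% of all genes (8.05% higher, 7.14% lower). With TSA, 6 were called (1 higher, 5 lower), against 14.9% (7.82% higher, 7.12% lower). *Pramef6* with A366 was the lowest value of any member relative to IVF, at -3.78 (95% interval -4.80 to -2.75, adjusted p = 4.09e-06), from 35 and 20 reads against 221 to 530.

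With the demethylases, 4 members were called for *Kdm3a* (3 higher, 1 lower), against 12.8% of all genes (6.59% higher, 6.21% lower). For *Kdm4d* 2 were called, both higher, against 9.31% (4.85% higher, 4.46% lower). With the co-treatments, 8 were called for TSA+RK-701 (2 higher, 6 lower), 5 for TSA+A366 (2 higher, 3 lower) and 6 for TSA+UNC0638 (4 higher, 2 lower). Of all genes, 12.2%, 10.9% and 9.84% were called, with 6.27%, 5.52% and 5.54% higher and 5.95%, 5.37% and 4.3% lower. *Pramel4* was above IVF in all 5 of these groups, by 1.82, 1.45, 1.77, 1.45 and 1.69 on the log2 scale, and *Pramel5* was called above IVF with *Kdm3a* (1.19) and with the co-treatments (1.42, 1.40 and 1.48). *Oog3* was called below IVF with the co-treatments (-1.44, -1.04 and -1.02) and was not called with *Kdm3a* or *Kdm4d* (-0.61 and -0.57). The counts for TSA+RK-701 were 5 and 3 without its replicate 1 or 2, those for TSA+UNC0638 3 without either of its libraries, that for TSA+A366 8 without replicate 1 of IVF, that for *Kdm3a* 7 without its replicate 1, and that for *Kdm4d* 1 without replicate 3 of IVF.

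Over the 10 comparisons with IVF for untreated embryos and with the matching control for treated ones, 10 of 16 members were called at least once, as were 28.5% of all genes tested. The other 6, *Oog2*, *Pramef8*, *Pramef12*, *Pramef12os*, *Pramel1* and *Pramel5*, were called in none. *Pramef12* was the steadiest of the coding members, between 21.1 and 50.4 CPM in all 25 libraries. *Pramef8* had 63.8 to 71.6 CPM in IVF and 29.5 to 70.9 CPM in the other groups.

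The autosomal genes to which RefSeq gives PRAME family symbols, but which the rule on names did not find, were 33 relatives, of which 28 were tested. In the LatA and CB controls 15 and 14 of 28 were lower than IVF and 1 was higher in each, the latter being *C87977*, beside 15.3% and 15% of all genes called. The median log2 fold changes were -1.35 and -1.41. With *Kdm3a* and *Kdm4d* 10 and 7 were called higher (2.38% and 2.11% of all genes higher), with RK-701 6 (1.73%), with TSA+RK-701 7 (3.68%), with TSA+A366 6 (3.06%) and with TSA+UNC0638 11 (3.68%), and none was lower. For TSA and for A366 alone edgeR called 0 of 28, 6 and 7 had an unadjusted p under 0.05, and DESeq2 called 0, where 0.318% and 0.12% of all genes were called. Many relatives share most of their sequence with further copies, so their counts are subject to the same limit as those of *Oog1*.

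Members and their nearest copies by coding sequence were set side by side. Neither *Oog3* and *Gm13103* nor *Pramef6* and *Gm13078* shared an exact window of 150 bases, whereas *Pramef17* shared 40.1% of its windows with *Gm13128*. *Oog2* shared 14.1% with *Gm13084*. *Pramef25* (6.71% of windows shared) and *BC080695* (32.7%) both shared the most with the same gene, *Gm13057*, so reads may have passed among them. *Gm2042* and *Gm13102*, which share the most windows with *Oog1* and *Pramel4*, were not among the copies compared. *Gm13103*, 87.8% identical to *Oog3*, had 132, 139, 146 and 162 CPM in IVF, 50.9 and 10.4 CPM in the LatA control and 112, 69.1 and 104 CPM with RK-701. Its log2 fold changes were -2.23 in the LatA control (SE 0.46, adjusted p = 0.000737) and 1.62 with RK-701 (SE 0.46, adjusted p = 0.0342), and A366 was lower than RK-701 by 2.10 on the log2 scale (adjusted p = 0.0031). *Gm13078*, 95.7% identical to *Pramef6*, was called lower in both controls (-1.70 and -1.75), and higher with *Kdm3a* (2.21), *Kdm4d* (1.94) and TSA+UNC0638 (2.52), the same 5 comparisons as *Pramef6*.

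*Gm13128*, 99.3% identical to *Pramef17*, rose with *Kdm3a* (1.79) and all co-treatments (1.74, 1.75 and 1.38), as *Pramef17* did, and also with *Kdm4d* (1.94). With RK-701 it did not pass (0.78, adjusted p = 0.205), where *Pramef17* did. *BC080695*, 94.4% identical to *Pramef25*, rose with RK-701 (1.56) and TSA+UNC0638 (2.30), as *Pramef25* did, and with *Kdm3a* (1.95). It was also higher with TSA+UNC0638 than with TSA+RK-701 (2.05, SE 0.44, adjusted p = 0.0173) and TSA+A366 (1.97, SE 0.44, adjusted p = 0.0208), and the same held for *Gm13078*, *Gm12794* and *B020004J07Rik*.

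**Figure D5:**
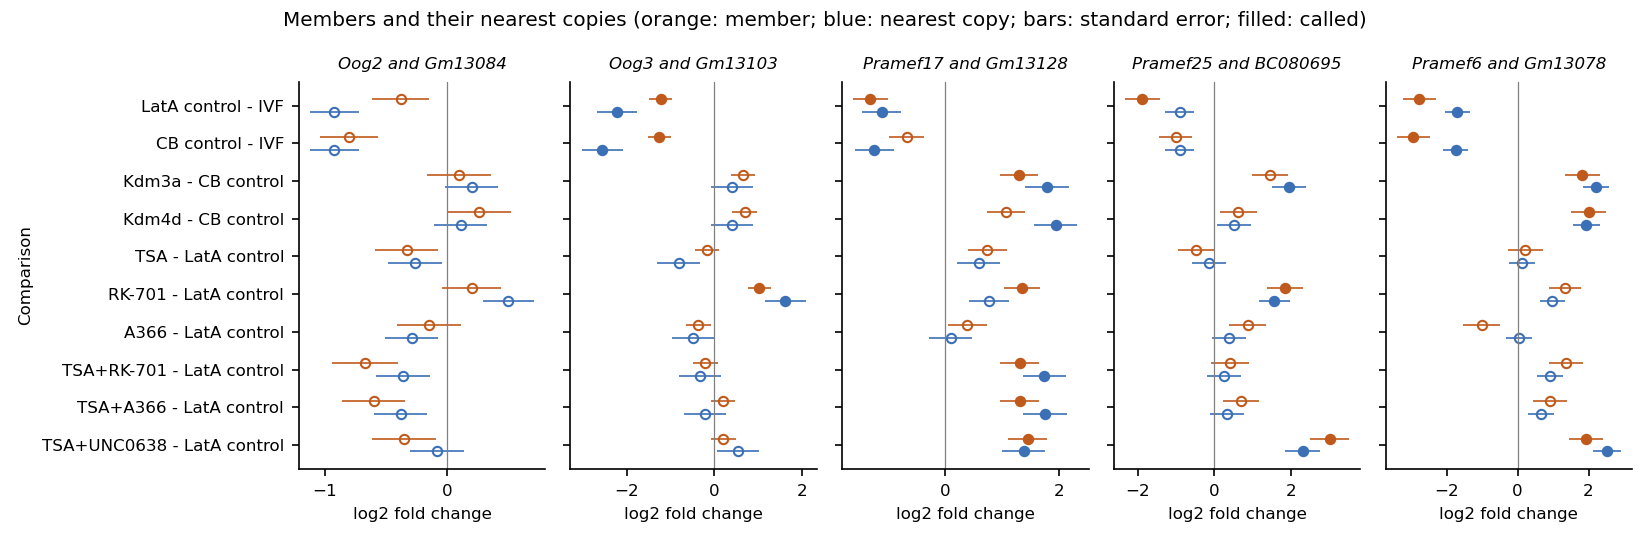
Log2 fold changes with SE in the 10 comparisons for 5 members (orange) and the relative with the most similar coding sequence (blue), filled where called. Where both genes of a pair are called in a comparison, their points lie on the same side of 0.

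The partners of PRAME receptors were taken as a list of 10 genes, namely the subunits of the CUL2 ligase and its NEDD8 pathway, *Uhrf1*, *Dnmt1* and the chromatin assembly subunits *Chaf1a* and *Chaf1b*. In the LatA control 1 of 10 was called higher than IVF (*Chaf1b*, 1.00), where 8.83% of all genes were called higher, and in the CB control edgeR called 0, with 6 at an unadjusted p under 0.05. With *Kdm3a*, *Kdm4d*, RK-701, TSA and A366 alone edgeR also called 0, with 5, 4, 4, 0 and 0 at an unadjusted p under 0.05. With TSA+RK-701 and TSA+A366, 3 of 10 rose, beside 3.68% and 3.06% of all genes called higher. These were the scaffold *Cul2* (1.29 and 1.15), the adaptor *Eloc* (1.15 and 1.04) and *Nedd8*, whose product activates cullins (1.11 and 1.07). *Cul2* had 82.2 and 71.1 CPM in the LatA control, 186 and 191 CPM with TSA+RK-701 and 193 and 148 CPM with TSA+A366. With TSA+UNC0638 the RING subunit *Rbx1* was called (1.08, 1 of 10, beside 3.68% of all genes higher), and *Cul2* was at 0.80 (adjusted p = 0.022). *Chaf1a* was called in none of these comparisons. Over all comparisons made it was called in 5, the most in the list. All comparisons include the treated groups against the same IVF libraries, where 9.31% to 15.2% of all genes were called. *Chaf1a* had 9.08 to 16.4 CPM in the IVF libraries and 18.1 to 35.1 CPM in the SCNT libraries.

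*Uhrf1* was 0.64 lower on the log2 scale in both controls than in IVF (adjusted p = 0.0157 and 0.0161), under 2-fold. In the groups where *Pramel7* rose, *Uhrf1* transcripts did not pass. They differed by -0.54 with *Kdm3a* (adjusted p = 0.141), by 0.00 with TSA+RK-701 (adjusted p = 1) and by -0.14 with TSA+A366 (adjusted p = 0.758). RNA counts do not measure the protein that the receptor acts on.

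Of the Ral genes downstream of OOG1's partner, *Ralb* was called higher than IVF in both controls. It had 0.62, 1.37, 1.04 and 0.558 CPM in IVF, 13.1 and 16.3 CPM in the CB control and 29.9 and 17 CPM in the LatA control, log2 fold changes of 3.97 (SE 0.38, adjusted p = 2.13e-08) and 4.65 (SE 0.38, adjusted p = 1.61e-09). The IVF values came from only 4, 22, 16 and 8 reads, so the size of these changes is uncertain. *Ralb* was called lower with *Kdm3a* than in the CB control (-1.47, SE 0.42, adjusted p = 0.0337). Below the LatA control it was called with RK-701 (-1.46, SE 0.36, adjusted p = 0.0168) and with the co-treatments (-2.45, -2.27 and -1.67), and *Oog1* was called in none of these. *Rala* rose by 1.20 in the LatA control (SE 0.22, adjusted p = 0.000226), while its change of 0.85 in the CB control was under 2-fold (adjusted p = 0.00665). It was called lower with TSA+A366 than in the LatA control, at just over 2-fold (adjusted p = 0.0158). *Ralgds* was not analysed here.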

How the data were processed

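The authors sequenced RNA of pooled 2-cell embryos with SMART-Seq HT, used Trimmomatic for trimming and STAR for alignment to mm10, retained uniquely mapped reads, and counted read pairs on exons with featureCounts 1.6.2 without strand. Their printed alignment settings allowed no mismatch to mm10, so reads over strain variants could be lost. The part of this in differences between IVF and SCNT groups was not tested. The deposited values are whole, unnormalized counts for 55375 genes and 1755056 copies of transposable elements, of which the latter were not used. Here 1 quasi-likelihood model of 25 libraries with a term for each of 11 groups was fitted with edgeR 4.0.16 in R 4.3.3, with TMM factors of 0.883 to 1.16 over all genes. Autosomal genes averaging 1 read or more (25794) were tested, with Benjamini-Hochberg adjustment over them. The common dispersion was 0.136. CPM are after TMM, and TPM uses the file's gene lengths over autosomal genes.

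On simulated data for TSA+RK-701 against the LatA control, with 25794 genes, 114 of 200 genes changed 4-fold were recovered (57%), with 5 other calls. The changed genes were drawn from all those with a mean of at least 10 reads. The share recovered therefore spans many depths and was not measured for the members. Members and lists (RefSeq PRAME relatives, CUL2 partners, Ral genes, markers) were chosen with earlier results of these data known. Named with values were members called in any of 10 comparisons and the 5 with the highest TPM. *Pramel1*, *Pramef8*, *Pramef12*, *Oog2*, *Gm13023*, *Gm13128*, *BC080695*, *Gm12794*, *B020004J07Rik* and *C87977* are named beside that rule, the *Gm* and *BC* copies by sequence identity where they are the nearest, and the rest after their values were seen. *Gm2042*, *Gm13102* and *Gm13057* are named only for the windows they share. Intervals and floors cover counting error or the spread of libraries only, without molecular identifiers. Alternatives were DESeq2 1.42.0, RLE factors, other filters, other references, fewer libraries and a replicate block. The 3 X-linked *Prame* symbols were not used.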

Additional observations from a re-analysis of the deposited data

Results flagged for a closer look

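Among the 4 IVF libraries, 17 quantities (16 members and the family total) were examined for a library far from the others, where chance alone marks about 1 in 20, and 3 were marked. *Pramel6* was high in replicate 1, at 157 CPM against 133 to 137 CPM in the others. *Pramef6* was low in replicate 2, at 17 CPM against 31.6 to 34.4 CPM. *Pramef20* was low in the same library, at 12.4 CPM against 15.4 to 15.8 CPM. The gap to the nearest library made up 0.848, 0.844 and 0.879 of the group's range in these 3 cases, over the limit of Dixon's test at the 95% level for 4 libraries. Replicate 1 was the shallowest of the IVF libraries, with 6662727 reads on genes. *Pramef6* stayed called below IVF in both untreated controls whichever library was left out. In edgeR, the test of whether TSA with a G9a inhibitor departed from the sum of both called no member.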

How the results depend on the processing

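No member's call changed direction under any alternative. Of 1275 log2 fold changes of members refitted under another setting, 1210 (94.9%) stayed on their side of the threshold, 48 lost their call and 17 gained one, and of 770 refitted without a library 659 (85.6%) stayed, 99 lost their call and 12 gained one. Both sets include values that were not called at first, so the share of calls kept was lower than these percentages. Without a library, *Pramef6* with *Kdm4d* kept its call in 1 of 4 refits, and *Pramel4* with TSA+RK-701 in 4 of 4. The small groups of 2 libraries are the main limit of these data, together with reads shared between copies. Causes of the changes below were not tested, beyond that fewer libraries leave less information on the spread.

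With only the compared libraries in the model, the members called went from 5 to 0 for RK-701, from 4 to 2 for TSA+RK-701 and from 3 to 0 for TSA+A366 against the LatA control, from 1 to 2 for *Kdm4d* against the CB control, and from 5 to 9 for TSA+A366 against IVF. With the mean of both controls as the reference *Kdm4d* had 2 and TSA+A366 1, and with the CB control as the reference TSA+A366 had 1. Without a filter on low counts *Kdm4d* had 2, and the interactions of TSA with RK-701 and A366 had 2 and 1. DESeq2 called 4 and 1 in these interactions, where edgeR called 0. RLE scaling left 1 of 2 for *Kdm4d* against IVF.

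The labels repeat replicate numbers across groups, but nothing pairs the libraries. For the 3 pairs of RK-701 and IVF libraries, the correlation of deviations from the group means was -0.0984 to 0.00207. With the replicate number as a block, 5 of the 8 members remained for TSA+RK-701 against IVF, 1 of 2 for *Kdm4d* against IVF and 1 of 2 for TSA+UNC0638 against TSA+RK-701, and the other counts moved by no more than 1.5 times. Exchanging the numbers of the LatA control, chosen after seeing the data because same-numbered libraries deviated in opposite directions, gave 0 members for TSA against the LatA control and 0 for the controls against each other, as without a block.

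Without 1 library at a time, the members called were 3 to 8 for the LatA control and 3 to 5 for the CB control against IVF. Against the matching control they were 0 to 6 for *Kdm3a*, 0 to 2 for *Kdm4d*, 0 to 1 for TSA, 0 to 6 for RK-701, 0 to 1 for A366, 1 to 4 for TSA+RK-701, 0 to 5 for TSA+A366 and 1 to 8 for TSA+UNC0638. The interactions had 0 to 2 each. Against IVF the counts were 3 to 7 for *Kdm3a*, 1 to 2 for *Kdm4d*, 6 to 7 for TSA, 2 to 3 for RK-701, 5 to 7 for A366, 3 to 8 for TSA+RK-701, 4 to 8 for TSA+A366 and 3 to 5 for TSA+UNC0638. A366 against RK-701 had 3 to 5, TSA+UNC0638 had 0 to 1 against TSA+RK-701 and against TSA+A366, and TSA+A366 against TSA+RK-701, *Kdm4d* against *Kdm3a* and the controls against each other had 0 throughout.

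Family totals in RPM without *Oog3* were 1066 in IVF, 1202 and 1281 in the CB and LatA controls, 1565 and 1350 with *Kdm3a* and *Kdm4d*, 1277 with TSA, 1525 with RK-701, 1429 with A366, and 1405, 1449 and 1501 with TSA+RK-701, TSA+A366 and TSA+UNC0638. After TMM scaling the totals were 4955 with *Kdm3a*, 5586 with RK-701, 2918 with A366 and 3923 with TSA+A366, which put RK-701 below the 5993 of IVF. Without 1 library they ranged from 5581 to 5933 in IVF, 2922 to 3898 in the CB control, 2580 to 4657 in the LatA control, 4180 to 4654 with *Kdm3a*, 3801 to 4861 with *Kdm4d*, 2737 to 3760 with TSA, 6025 to 6278 with RK-701, 3171 to 3208 with A366, 2824 to 3305 with TSA+RK-701, 3672 to 3685 with TSA+A366 and 3443 to 4059 with TSA+UNC0638.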
